A study of Mus musculus with 43 samples.

Results

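Asymmetric (H4R3me2a) and symmetric (H4R3me2s) dimethylation of arginine 3 of histone H4 were compared in the testis of wild-type mice at postnatal day 7 (P7), a week in which spermatogonia begin to divide between self-renewal and differentiation. The comparison rests on every P7 WT CUT&Tag peak list that the labels give to either mark, 3 lists for H4R3me2a and 2 for H4R3me2s, out of 43 samples in the series. The H4R3me2a lists held 16995, 18722 and 17388 peaks, and the H4R3me2s lists held 19981 and 36145 peaks. CUT&Tag tethers a transposase to an antibody bound to chromatin, so that DNA near the mark is cut out and sequenced.

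The same arginine accepts either form of the mark. Prmt1, the main type I protein arginine methyltransferase, places both methyl groups on one nitrogen of the side chain and so writes H4R3me2a, which is known as a mark of active genes. Prmt5, a type II enzyme, places one methyl group on each of the terminal nitrogens and writes H4R3me2s, which is mostly described as a mark of silent genes. The study asked whether both forms compete for the same promoters, and the lists were therefore compared by genomic place, by shared and separate peaks, and by the expression of the genes that carry them.

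All 5 samples came from C57BL/6J WT mice at P7 with no treatment given in their labels, which name spermatogonia as the cell type. According to the methods, tubules were freed of interstitial cells, digested into single cells and strained with the aim of removing Sertoli cells, and no sort is described for CUT&Tag. Expression was taken from 2 WT Smart-seq2 libraries and 3 WT bulk RNA-seq libraries of whole P7 testis. The text of the study describes tamoxifen injection before both kinds of RNA sample. According to the methods, Smart-seq2 started from GFP-positive germ cells of mice whose controls kept 1 intact Prmt1 allele beside a floxed allele and carried Ddx4-GFP-CreERT2, a Cre expressed in germ cells, whereas the labels call them WT. Peaks and RNA come from different animals.

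The labelled cell type was checked against markers. In the Smart-seq2 libraries the summed TPM of 7 germ cell markers was 2177 and 2185, and that of 7 Sertoli cell markers was 169 and 162. In bulk RNA-seq the same sums were 513 to 629 for germ cells and 3640 to 3936 for Sertoli cells. Tex101, a germ cell surface protein, made up 1576 and 1591 TPM of the Smart-seq2 sums and 59.7 to 79.8 TPM of the bulk sums. The 6 other germ cell markers summed to 601 and 594 TPM in Smart-seq2 and to 438 to 549 TPM in bulk RNA-seq, so that most of the difference in the germ cell sum was Tex101. Csf1r, Cd68 and Adgre1, the macrophage markers, were at 0 in both Smart-seq2 libraries. The Leydig cell marker Star was at 6.97 and 0.12 TPM there, the myoid marker Acta2 at 5.41 and 0 TPM, and the other Leydig and myoid markers at 0. At the promoters of WT P7 chromatin, H3K4me3 was found for 6 of 7 germ cell markers, for 6 of 7 Sertoli cell markers and for 1 of 11 markers of Leydig, myoid and macrophage cells. The study describes a check of the germ cell share after straining, which was not analysed here, and the part of Sertoli cells in the H4R3 lists was not tested.

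Both marks were read at very different depth. The fold enrichment and p-value of a peak together fix how many fragments lay over its summit (the pileup), and a whole number was recovered for 100% of the peaks of all 5 lists, with −log10 p met to within 0.001. The median peak held 9, 9 and 10 fragments in the H4R3me2a lists and 4 fragments in both H4R3me2s lists. The genome-wide background was 1.79, 1.88 and 2.26 fragments for H4R3me2a and 0.408 and 0.593 for H4R3me2s. The weakest peaks rested on 6 to 7 fragments for H4R3me2a and on 3 for H4R3me2s.

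**Figure D1:**
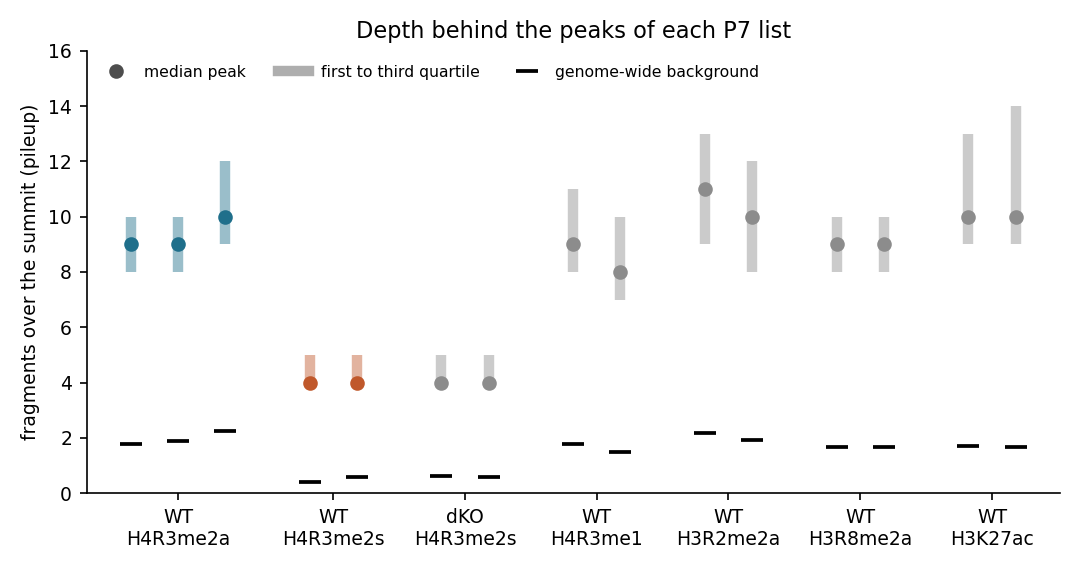
Pileup (fragments over the summit) of the median peak (point) and interquartile range (bar), with the genome-wide background (dash), for each P7 list of 7 groups. The H4R3me2s lists of WT and of Prmt1-dKO (Prmt1 deleted in germ cells) sit at a median of 4, and the lists of H4R3me2a, H4R3me1, H3R2me2a, H3R8me2a and H3K27ac between 8 and 11.

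The peak names place the lists in separate series. Names of the H4R3me2a lists share their form with those of H4R3me1, H3R2me2a, H3R8me2a, H3K27ac and H3K4me3. The WT H4R3me2s lists carry names of a different form, and the Prmt1-dKO H4R3me2s lists names of yet another. Mark, antibody, depth and naming series therefore cannot be told apart in any difference between H4R3me2a and H4R3me2s given here. With 3 against 2 lists, the smallest p of the two-sided exact permutation test is 0.2, so no difference can pass 0.05 and each list's value is given. Over the 14 comparisons planned, no Benjamini-Hochberg adjusted exact permutation p was below 0.7, and over 20 further measures of the lists none was below 0.308.

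Among the best-ranked promoters of each kind, those held by all 5 lists lay partly in repeats. Windows reaching 100 bp to either side of the best summit of the leading genes of each class are shown because they carry that contrast. They were read 5′ to 3′ from the forward strand of GRCm38 in the RefSeq copy, windows holding an annotated UTR were passed over (H3f3b and Gm10131, ranked first among the genes with H4R3me2s only), and capitals mark CpG dinucleotides, the sites of DNA methylation that crowd at active promoters.

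In all 5 lists, Gm10800 (chr2:98666709-98666909, exon) and Gm21738 (chr14:19418686-19418886, exon):
Gm10800: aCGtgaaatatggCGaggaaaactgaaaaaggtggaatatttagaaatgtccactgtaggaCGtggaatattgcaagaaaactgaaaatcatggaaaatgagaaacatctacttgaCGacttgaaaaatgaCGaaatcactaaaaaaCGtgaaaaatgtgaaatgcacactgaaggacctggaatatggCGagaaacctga
Gm21738: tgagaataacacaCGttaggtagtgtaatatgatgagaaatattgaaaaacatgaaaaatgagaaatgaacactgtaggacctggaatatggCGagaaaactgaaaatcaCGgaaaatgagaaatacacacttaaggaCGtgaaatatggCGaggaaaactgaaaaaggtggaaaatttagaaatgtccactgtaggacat

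In all 3 H4R3me2a and no H4R3me2s list, Gm10354 (chr5:14981277-14981477, upstream of the gene) and Speer4d (chr5:15621791-15621991, intron):
Gm10354: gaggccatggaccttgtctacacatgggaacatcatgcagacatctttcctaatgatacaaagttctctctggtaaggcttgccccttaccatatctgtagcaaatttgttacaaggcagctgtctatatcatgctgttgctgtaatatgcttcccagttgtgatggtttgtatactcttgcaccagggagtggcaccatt
Speer4d: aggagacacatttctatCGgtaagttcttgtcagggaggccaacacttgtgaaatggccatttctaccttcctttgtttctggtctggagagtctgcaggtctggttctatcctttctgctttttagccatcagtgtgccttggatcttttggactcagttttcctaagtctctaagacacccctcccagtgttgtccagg

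In both H4R3me2s and no H4R3me2a list, Cdk19 (chr10:40348933-40349133, exon, 275 bp upstream of the nearest start site of Cdk19 and within the spans of Cdk19 and Cdk19os) and Uchl4 (chr9:64235339-64235539, exon, within the span of Map2k1):
Cdk19: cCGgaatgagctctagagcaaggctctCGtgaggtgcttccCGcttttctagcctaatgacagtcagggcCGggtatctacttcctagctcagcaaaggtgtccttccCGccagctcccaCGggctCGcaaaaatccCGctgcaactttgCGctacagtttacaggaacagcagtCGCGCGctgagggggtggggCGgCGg
Uchl4: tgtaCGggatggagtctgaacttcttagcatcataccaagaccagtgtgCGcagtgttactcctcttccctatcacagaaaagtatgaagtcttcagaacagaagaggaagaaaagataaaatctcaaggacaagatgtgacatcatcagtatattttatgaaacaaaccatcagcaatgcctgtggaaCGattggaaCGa

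The windows of Gm10800 and Gm21738 were repeat-masked over 97.01% and 84.1% of their bases and held 7 and 5 CpG at a GC content of 36.8% and 34.8%. The Gm10800 window is centred on the summit of H4R3me2s replicate 1, 492 bp from the start site. The summits of the other lists lay at 247 to 270 bp, outside this window. The exon labels hold for the H4R3me2s summits, since the H4R3me2a summits of both genes lay outside exons. The windows of Gm10354 and Speer4d, a member of a multigene family expressed in testis, held 0 and 1 CpG. The window of Cdk19, a kinase of the Mediator complex, held 14 CpG at 59.7% GC, and that of Uchl4, a ubiquitin hydrolase gene, held 4 at 40.8% GC. The Cdk19 window also held 1 GC box (GGGCGG on either strand, the site of Sp and Klf factors), and the Uchl4 window 1 CCAAT box (CCAAT on either strand). Within 150 bp of the start site, a GC box was found at 45.5% of protein-coding genes and a CCAAT box at 36.7%.

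By genomic place, H4R3me2a lists were close to each other and the H4R3me2s lists lay on either side of them. A promoter was taken as the 3000 bp to either side of any annotated transcription start site, and 31.7%, 31.3% and 33.6% of H4R3me2a summits and 48.6% and 28.8% of H4R3me2s summits lay there, where such windows cover 15.50% of the genome. The difference of the means, 32.2% ± 1.25 (SD, n = 3) against 38.7% ± 14.0 (SD, n = 2), was smaller than the spread between the H4R3me2s lists (exact permutation test, two-sided p = 0.8). The intergenic share was 30.4%, 30.8% and 28.8% for H4R3me2a and 22.7% and 38.8% for H4R3me2s (exact permutation p = 0.8), below the 49.1% of the genome in every list.

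**Figure D2:**
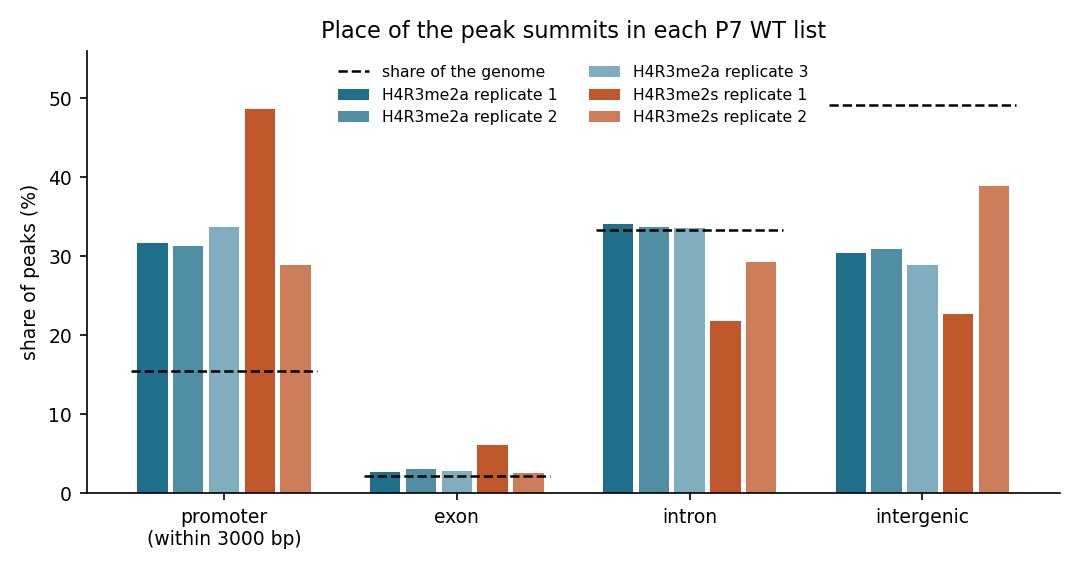
Share of peak summits (%) in promoters, exons, introns and intergenic space for each P7 WT list, with the share of the genome as a dashed line. The H4R3me2s lists fall above and below the H4R3me2a lists except in introns, where both are lower.

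Introns separated the marks in every list. Of the H4R3me2a summits 34.1%, 33.7% and 33.5% lay in introns outside promoters, close to the 33.3% of the genome, against 21.8% and 29.2% of the H4R3me2s summits. The lists did not overlap and the means differed by 8.28 percentage points, with the smallest p the design allows (exact permutation p = 0.2).

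Over all peaks the H4R3me2s lists differed from each other in exons. Replicate 1 of H4R3me2s had 6.11% of its summits in exons outside promoters, while replicate 2 had 2.504% and the H4R3me2a lists 2.701%, 3.11% and 2.86%, where exons cover 2.13% of the genome. The genes around the exon peaks of H4R3me2s replicate 1 had a median of 25.9 TPM in Smart-seq2 and 22.9% of them reached 100 TPM. For replicate 2 these values were 3.94 TPM and 7.86%, and for the H4R3me2a lists 4.13 to 5.77 TPM and 5.20% to 5.81%. The exon summits of replicate 1 lay at a median of 93.3% of the gene's length from its 5′ end, those of the other 4 lists at 85.6% to 87.3%. At a q of at most 0.01 both H4R3me2s lists lay above H4R3me2a, with exon shares of 9.93% and 4.70% against 1.64%, 1.73% and 0.930%, a difference of -5.88 percentage points against -1.42 over all peaks (exact permutation p = 0.2 at this threshold). Intron peaks of replicate 1 did not show this, with 3.59 TPM at the median gene against 4.30 to 4.90 TPM for H4R3me2a.

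The H4R3me2s lists of Prmt1-dKO testis, which differ in genotype, had 25.7% and 24.9% of summits in promoters, 2.31% and 2.27% in exons and 31.6% and 32.1% in introns. Without H4R3me2s replicate 1 the promoter share was 3.36 percentage points higher for H4R3me2a and the exon share 0.385 points higher, both turned from the comparison of all lists.

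Among the better supported peaks the marks stood further apart. At a q of at most 0.01, which kept 1677 to 2366 peaks of each H4R3me2a list and 3112 and 1680 peaks of the H4R3me2s lists, the promoter share was 29.8%, 31.7% and 33.4% for H4R3me2a and 67.9% and 52.9% for H4R3me2s. The intergenic share was then 32.8% to 34.3% against 11.2% and 22.0%, and the intron share 27.5% to 27.9% against 8.23% and 15.1%. No list of one mark overlapped with the other in these shares (exact permutation p = 0.2 each). When every list was cut to its best 16995 peaks, the promoter share was 31.5% to 33.5% against 50.6% and 35.0%.

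Base composition followed the same pattern. Within 150 bp of the summit the median GC content was 50.2%, 50.5% and 50.8% for H4R3me2a and 51.5% and 48.5% for H4R3me2s, above the 41.5% of regular windows across the genome. The median CpG ratio (observed over expected) was 0.197, 0.199 and 0.201 against 0.278 and 0.195, where protein-coding start sites had 0.589 and the genome 0.149. At a q of at most 0.01 the CpG ratio of H4R3me2a peaks was 0.192, 0.194 and 0.200 while that of H4R3me2s peaks was 0.413 and 0.441. Repeat-masked bases made up 40.2% to 46.6% of the windows of these stricter H4R3me2a peaks and 17.6% and 30.2% of those of H4R3me2s.

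Within promoters, H4R3me2s summits sat nearer to the start site. Their median distance was 324 and 408 bp in the H4R3me2s lists and 583, 567 and 523 bp in the H4R3me2a lists. Of the promoter summits, 61.0% and 54.6% of H4R3me2s and 46.7%, 47.3% and 48.9% of H4R3me2a were within 500 bp (exact permutation p = 0.2 for both measures). H3K4me3, a mark of promoter nucleosomes around start sites, overlapped 51.5% and 46.5% of the H4R3me2s promoter peaks and 39.1%, 39.9% and 41.5% of the H4R3me2a promoter peaks.

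Outside promoters H4R3me2a met H3K27ac more often over the full lists, the only setting in which this measure was taken. H3K27ac, found at active promoters and enhancers, overlapped 8.63%, 7.54% and 9.06% of the H4R3me2a peaks there and 7.23% and 3.48% of the H4R3me2s peaks, so the lists did not overlap (exact permutation p = 0.2). Over all peaks the H3K27ac overlap was 13.7%, 12.7% and 14.6% against 16.9% and 9.54%, and the H3K4me3 overlap 15.0%, 15.0% and 16.5% against 27.5% and 14.8%. The H3K4me3 overlap separated the marks at equal list length, with 15.0%, 15.6% and 16.7% against 29.6% and 22.3%, and at a q of at most 0.01, with 36.5%, 37.8% and 34.1% against 43.0% and 59.0% (exact permutation p = 0.2 each). At equal list length the H3K27ac overlap turned, with 13.7%, 13.5% and 14.8% against 18.6% and 15.7%. At a q of at most 0.01 it was 48.2%, 48.1% and 43.4% against 34.1% and 53.4%, and the lists overlapped. The X chromosome, which holds 6.18% of the genome, carried 0.659%, 0.593% and 0.615% of the H4R3me2a peaks and 1.34% and 1.28% of the H4R3me2s peaks. It carried 1.16% and 1.11% in the Prmt1-dKO H4R3me2s lists and 0.489% to 0.840% in the lists of H3R2me2a, H3R8me2a and H4R3me1, all below the H4R3me2s lists, but 1.46% to 1.61% in those of H3K27ac and 3.55% and above in those of H3K4me3.

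Most peaks were found in a single list. The peaks of the 5 lists merged into 89980 regions, of which 78547 (87.3%) were covered by 1 list, 7160 by 2 lists, 2315 by 3 lists, 1066 by 4 lists and 892 (0.991%) by all 5. The peaks of an H4R3me2a list were found again in another H4R3me2a list at 16.2% to 19.3%, and in an H4R3me2s list at 12.6% to 17.1%. Of the peaks of H4R3me2s replicate 1, 16.6% overlapped with replicate 2 and 11.8% to 12.5% with an H4R3me2a list. Of those of the longer replicate 2, 9.19% overlapped with replicate 1 and 7.82% to 8.31% with an H4R3me2a list.

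**Figure D3:**
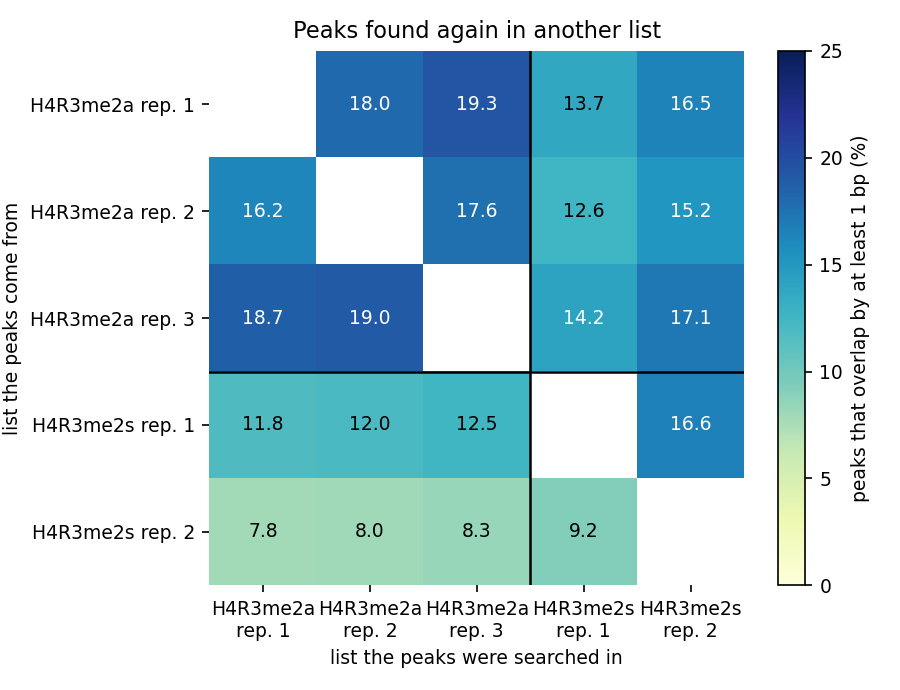
Percent of the peaks of each list (rows) that overlap by at least 1 bp with a peak of another list (columns). Values within a mark (upper left and lower right blocks) reach 19.3% and those between the marks 17.1%.

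At equal list length the order of these overlaps became clearer. H4R3me2a peaks were found again in H4R3me2a at 17.3% to 19.1% and in H4R3me2s at 12.3% to 13.3%, and H4R3me2s peaks in the other H4R3me2s list at 14.6% in both directions and in H4R3me2a at 12.4% to 13.5%. Over the full lists, H4R3me2a peaks overlapped with H4R3me1 at 17.6% to 22.9%, with H3R8me2a at 16.6% to 19.9% and with H3R2me2a at 15.2% to 17.9%. For H4R3me2s peaks these overlaps were 8.74% to 15.2%, 8.78% to 13.7% and 7.72% to 12.3%.

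Sharing was more frequent where H3K4me3 was present. Of the H4R3me2a peaks on H3K4me3, 47.8% to 50.1% overlapped with an H4R3me2s peak, against 6.21% to 11.1% of those off H3K4me3. Of the H4R3me2s peaks on H3K4me3, 23.7% to 25.9% overlapped with an H4R3me2a peak, against 4.86% to 7.56% of those off it. Overlap within a mark was higher in the same places too, at 35.9% to 40.9% between H4R3me2a lists and 40.6% and 41.5% between H4R3me2s lists.

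Regions that returned in the lists of 1 mark differed in place. Of the 1240 regions in both H4R3me2s lists and no H4R3me2a list, 75.3% lay in promoters and 61.6% overlapped H3K4me3. Of the 2844 regions in at least 2 H4R3me2a lists and no H4R3me2s list, 29.1% lay in promoters and 10.9% overlapped H3K4me3, while over all regions the shares were 31.4% and 12.1%. The 1399 regions held by at least 2 H4R3me2a lists and both H4R3me2s lists overlapped H3K4me3 at 66.3% and H3K27ac at 73.6%.

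The regions common to both marks were also common to other antibodies. Of the 892 regions in all 5 lists, 607 (68.05%) had a peak in every one of the 6 lists of H3R2me2a, H3R8me2a and H4R3me1. Of the regions held by 1 list alone, 30 (0.0382%) did. A peak in any of those 6 lists covered 70.3% of the regions of at least 2 H4R3me2a lists without H4R3me2s, and 52.4% of the regions of both H4R3me2s lists without H4R3me2a. Over all 89980 regions, 24.7% had a peak in any of the 6 lists and 1.17% in every one.

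Of 21938 protein-coding genes, 19.0%, 20.3% and 20.2% had a promoter summit in the H4R3me2a lists and 33.0% and 33.7% in the H4R3me2s lists. At least 1 H4R3me2a list marked 40.0% of the genes and at least 1 H4R3me2s list 48.9%. At least 2 H4R3me2a lists marked 3355 genes (15.3%), and both H4R3me2s lists marked 3892 genes (17.7%). Between replicates 38.5% to 41.1% of the genes of an H4R3me2a list were found again, and 53.7% and 52.7% of those of an H4R3me2s list. Between marks, 55.5% to 56.1% of the genes of an H4R3me2a list were found in an H4R3me2s list, and 31.4% to 34.4% in the other direction.

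Both marks together (at least 2 H4R3me2a and both H4R3me2s lists) were found at 1527 promoters (6.96%). H4R3me2a alone (at least 2 lists, no H4R3me2s list) was found at 648 (2.95%) and H4R3me2s alone (both lists, no H4R3me2a list) at 1081 (4.93%). A further 8552 genes (39.0%) had no summit in any list. The rule for H4R3me2a alone asks for 2 of 3 lists and that for H4R3me2s alone for 2 of 2, and with 2 H4R3me2a lists in place of 3 the counts became 869 to 916, 272 to 291 and 1470 to 1529. Without H4R3me2s replicate 1 they were 2106, 1249 and 2938, and without replicate 2 they were 2128, 1227 and 2764. At equal list length H4R3me2a alone, with 889 genes, outnumbered H4R3me2s alone, with 715, so the order of these classes turned. A mark missing from a list may be present below its depth.

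Promoters of these classes differed in CpG and in active marks. H3K4me3 was present at 96.8% of the promoters with both marks, 91.5% of those with H4R3me2s alone, 72.2% of those with H4R3me2a alone and 30.4% of those in no list, against 60.3% of all. H3K27ac was present at 71.8%, 49.6%, 24.5% and 7.34%, and the median CpG ratio at the start site was 0.825, 0.814, 0.659 and 0.268. Genes with more start sites offer a wider window, and the median number of start sites was 6, 5, 5 and 2 in this order. Without H4R3me2s replicate 1 the order of the classes with 1 mark turned, with H3K4me3 at 73.7% of the promoters with H4R3me2s alone and 80.2% of those with H4R3me2a alone, and CpG ratios of 0.702 and 0.725. Without replicate 2 it did not turn, with 82.4% and 80.1%, and 0.773 and 0.719.

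Genes that carried both marks had the highest median expression of these classes, with either H4R3me2s list left out as well. Genes with H4R3me2s alone had a higher median than genes with H4R3me2a alone when both H4R3me2s lists were required, an order that turned without H4R3me2s replicate 1. The median TPM of genes with both marks was 26.1 and 24.6 in the Smart-seq2 libraries and 32.9, 33.4 and 30.6 in bulk RNA-seq. With H4R3me2s alone it was 21.7 and 17.8, and 27.9, 28.1 and 26.2. With H4R3me2a alone it was 3.03 and 1.61, and 10.1, 10.3 and 9.79. Genes of no list had a median of 0 in both Smart-seq2 libraries and of 0.1 in each bulk library.

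**Figure D4:**
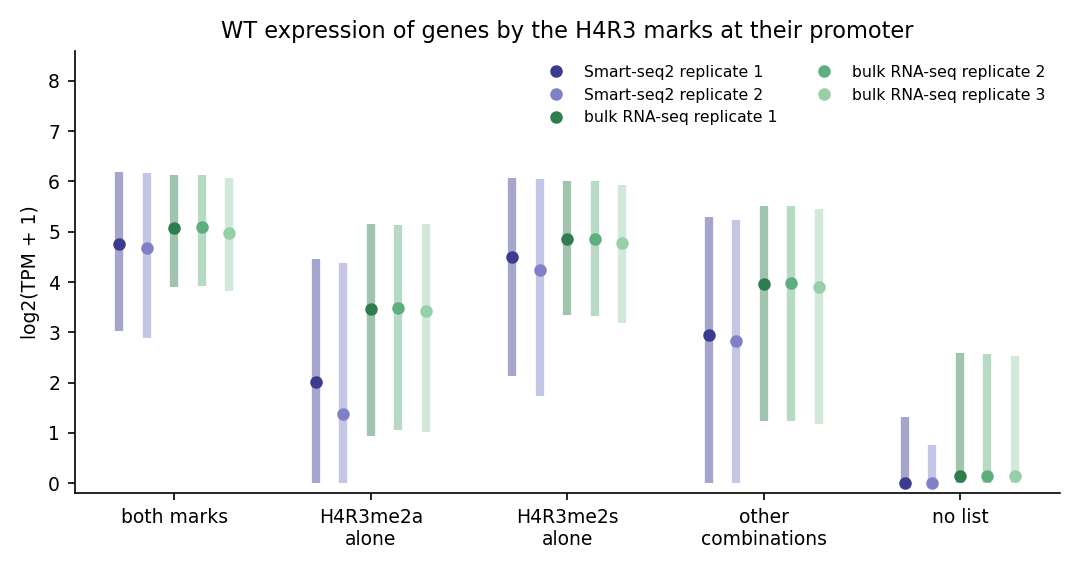
Expression as log2(TPM + 1) of protein-coding genes by the marks at their promoter, with the median (point) and the interquartile range (bar) in each WT library. In all 5 libraries the median of genes with H4R3me2a alone lies below that of genes with H4R3me2s alone, an order that turned when H4R3me2s replicate 1 was left out.

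The gap between H4R3me2a alone and H4R3me2s alone held in 5 of 5 libraries and averaged -1.89 on the log2(TPM + 1) scale, from -2.85 to -1.34. Without H4R3me2s replicate 1 it averaged 0.29 (0.21 to 0.36), and without replicate 2 it averaged -0.73 (-1.002 to -0.52), where the class of H4R3me2s alone then rests on 1 list and that of H4R3me2a alone on at least 2. Among genes with H3K4me3 at the promoter it was -0.96. An expressed gene was taken as one of at least 1 TPM on average, and 89.2% of the genes with both marks, 82.2% of those with H4R3me2s alone and 387 of 645 with H4R3me2a alone were expressed in Smart-seq2. Genes are not replicates, so these medians carry no test.

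With 1 list of each mark, genes marked in the H4R3me2s list only had the higher median for either H4R3me2s list. Genes in an H4R3me2a list and not in H4R3me2s replicate 1 had a median of 2.65 to 4.44 TPM in the Smart-seq2 libraries, against 14.7 to 16.02 TPM for genes in replicate 1 and not in the H4R3me2a list. With H4R3me2s replicate 2 in its place the values were 3.35 to 5.68 against 9.31 to 9.94 TPM. The difference was below 0 in all 6 combinations of list and Smart-seq2 library and in all 9 with bulk RNA-seq for either H4R3me2s list, and it was smaller with replicate 2 (-1.25 to -0.69 in Smart-seq2 and -0.49 to -0.35 in bulk).

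Taken over all genes of a list, shared ones included, the gap in expression was smaller. The median of log2(mean TPM + 1) in Smart-seq2 was 3.76, 3.76 and 3.79 for the H4R3me2a lists and 4.25 and 3.84 for the H4R3me2s lists (exact permutation p = 0.2). In bulk RNA-seq it was 4.42, 4.42 and 4.43 against 4.74 and 4.43 (exact permutation p = 0.2). The differences of -0.28 and -0.17 shrank to -0.07 and -0.01 without H4R3me2s replicate 1, and to -0.16 and -0.10 over genes of at least 1 TPM. Over all annotated genes they were -0.20 and -0.10 and the lists of the marks overlapped (exact permutation p = 0.8 each). They widened to -0.49 and -0.29 at equal list length and to -0.82 and -0.45 at a q of at most 0.01, where no list of one mark overlapped with the other (exact permutation p = 0.2 each).

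In every list more promoters were marked among expressed genes than among genes at 0 TPM. Among genes at 0 TPM in Smart-seq2, 8.55% to 9.74% had an H4R3me2a summit, and 11.1% and 16.5% an H4R3me2s summit. From 10 to 100 TPM the shares were 28.6% to 30.6% for H4R3me2a and 52.7% and 50.9% for H4R3me2s. At 100 TPM and above they were 27.6% to 29.7% for H4R3me2a and 62.6% and 51.9% for H4R3me2s. In bulk RNA-seq the H4R3me2a lists went from 28.1%, 29.6% and 29.8% at 10 to 100 TPM to 27.2%, 29.4% and 30.1% at 100 TPM and above, and the H4R3me2s lists from 51.2% and 48.9% to 60.1% and 50.2%. All 3 H4R3me2a lists were thus lower in the highest bin in Smart-seq2, whereas replicate 3 was higher there in bulk RNA-seq.

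**Figure D5:**
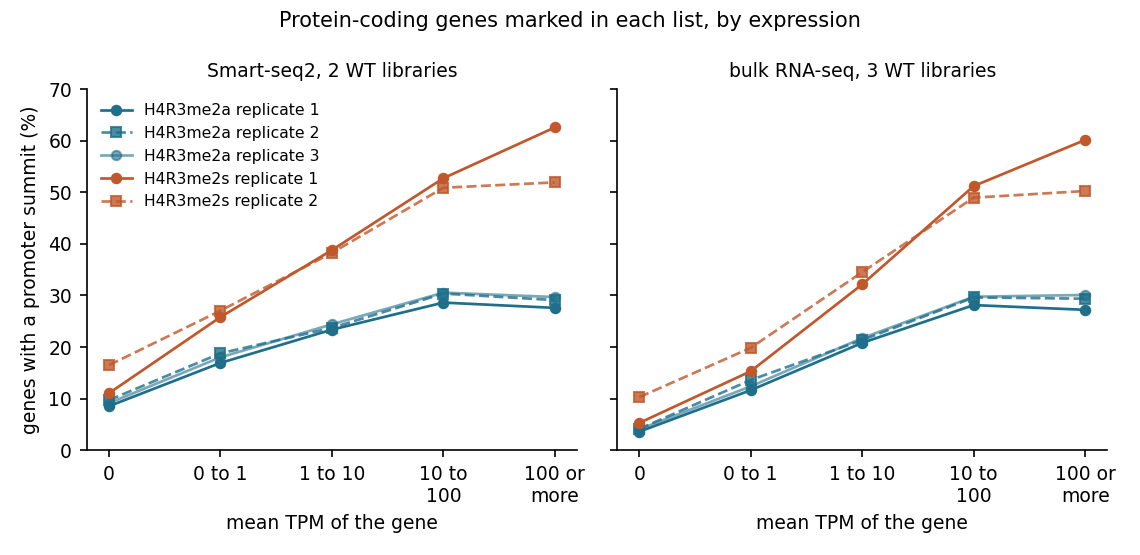
Percent of protein-coding genes with a promoter summit in each P7 WT list, by bins of mean WT TPM in Smart-seq2 (left) and bulk RNA-seq (right). H4R3me2a lists stay between 27.2% and 30.6% from 10 TPM on, and H4R3me2s lists lie above them in every bin.

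Silent genes with H3K4me3 were marked less often than active ones, yet more often than genes without H3K4me3. Of 892 such genes below 1 TPM in both assays, 18.05% to 23.2% had an H4R3me2a summit, and 29.5% and 34.2% an H4R3me2s summit. Of 10508 genes with H3K4me3 and at least 1 TPM in both assays, 28.0% to 29.8% had H4R3me2a, and 53.0% and 49.97% had H4R3me2s. Without H3K4me3 the shares were 7.46% to 8.03%, and 9.45% and 13.2%.

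The 8 genes ranked highest among the 571 held by all 5 lists (2.60% of genes) fell into 2 kinds. Gm10800, Gm21738, Gm10722, Gm11168 and Gm10715, predicted genes at 0 TPM in all bulk libraries and at most 1.29 TPM in Smart-seq2, had summits with 145 to 373 fragments in the H4R3me2a lists and 75 to 324 and 121 to 357 fragments in the H4R3me2s lists. Their fold enrichment was only 5.05 to 9.37, since the local background was high as well. Of these genes, Gm10722 and Gm11168 shared 1 summit in every list. Aida and Brox, neighbours that share 1 summit, had 67, 66 and 71 fragments in the H4R3me2a lists and 53 and 64 in the H4R3me2s lists. Zc3h7a, a zinc finger gene, had 51, 53 and 73, and 36 and 49 fragments. The best summit of all 8 lay in a peak of each of the 12 other P7 lists, whatever the antibody.

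Of the 102 genes in all 3 H4R3me2a lists and no H4R3me2s list (0.465%), 6 of the 8 highest ranked were below 5 TPM on average in Smart-seq2, as were 58.8% of the 102 and 57.1% of all genes. Gm10354, Speer4d and Speer4e had 21 to 32 fragments and at most 0.0733 TPM on average in either assay. Whether reads map to these genes alone was not tested. Best1, a chloride channel, had 18, 13 and 19 fragments and 4.86 TPM in Smart-seq2, just below the limit of 5 TPM, which is not a bin limit used elsewhere. Ryr1, the calcium release channel of muscle, had 9, 15 and 13 fragments and 0.735 TPM. Slc26a6, an anion exchanger, and its neighbour Tmem89 shared summits with 9, 9 and 18 fragments, at 29.7 and 0 TPM. These summits lay upstream of Tmem89 and at 100.3%, 98.9% and 98.8% of the length of Slc26a6 from its 5′ end. They counted for Slc26a6 through an annotated start site near its 3′ end, not through the start of the gene. Gm21887 on the X chromosome had 22, 21 and 30 fragments, 7.28 and 7.99 TPM in Smart-seq2 and 428 TPM in bulk RNA-seq.

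These promoters also carried peaks of other antibodies. The best summit of Slc26a6 and Tmem89 lay in a peak of all 12 other P7 lists, both Prmt1-dKO H4R3me2s lists included. For the other 6 genes between 3 and 8 of those lists held a peak there.

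Of the 1081 genes in both H4R3me2s lists and no H4R3me2a list, 5 of the 8 highest ranked were above 90 TPM in both Smart-seq2 libraries, as were 16.7% of all genes of this class and 7.98% of all genes. H3f3b, which codes for the replacement histone H3.3, had 50 and 34 fragments, 3252 TPM in Smart-seq2 and 1224 TPM in bulk RNA-seq. Its summits lay in an exon 1178 and 1234 bp downstream of the nearest of its start sites, at 77.1% and 78.1% of the gene's length from the 5′ end. Psmb2 and Psmd12, subunits of the proteasome, had 11 and 7, and 8 and 9 fragments, at 569 and 217 TPM. Sf3b4, a subunit of the splicing factor SF3b, had 9 and 8 fragments at 96.3 TPM. At 92.6 TPM in Smart-seq2 replicate 2 it lay just above the limit of 90 TPM, which is not a bin limit used elsewhere. The predicted gene 1810022K09Rik had 8 and 7 at 370.0 TPM, and Cdk19 had 12 and 8 at 4.49 TPM. Gm10131 had 34 and 10 and Uchl4 9 and 11 fragments, at 32.3 and 20.5 TPM for Gm10131 and 4.46 and 1.71 TPM for Uchl4. The best summits lay in a peak of 0 to 7 of the 12 other P7 lists. None lay in a peak of the Prmt1-dKO H4R3me2s lists, which overlapped with 10.3% and 12.5% of all peaks of replicate 1 and with 7.05% and 8.82% of those of replicate 2.

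The enzymes and their partners were next examined. The promoter of Prmt1, a gene at chr7:44975989-44986568, held summits in H4R3me2a replicates 1 and 3, with 12 and 13 fragments, and in both H4R3me2s lists, with 5 and 8 fragments. It was expressed at 350 and 239 TPM in Smart-seq2 and at 652, 604 and 638 TPM in bulk RNA-seq. Prmt5, at chr14:54507187-54517525, had H3K4me3 and H3K27ac and no summit of either H4R3 mark in any list, at 55.6 and 49.4, and 56.7, 57.5 and 52.4 TPM. Carm1, which methylates histone H3, was marked in all 5 lists. Over 13 enzymes and partners of arginine methylation, at least 2 H4R3me2a lists marked 4 (15.3% of all genes) and both H4R3me2s lists marked 8 (17.7% of all genes). Wdr77, the partner of Prmt5, was among these 8. The median of the 13 genes was 16.3 TPM in Smart-seq2 and 45.2 TPM in bulk RNA-seq. Of all genes at 10 to 100 TPM, 24.9% and 32.3% were marked in this way with Smart-seq2 values, and 24.3% and 30.2% with bulk values.

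Genes of spermatogonial self-renewal were marked at shares near those of all genes. Of 24 self-renewal genes 3 were marked by at least 2 H4R3me2a lists (12.5%) and 3 by both H4R3me2s lists (12.5%), and 11 and 13 had a summit in at least 1 list, near the 40.0% and 48.9% of all genes. Etv5, a target of GDNF signalling, was in 2 lists of each mark. Lhx1 and Taf4b, regulators of stem cell maintenance, were in 2 H4R3me2a lists and 1 H4R3me2s list, while Pou3f1 and Spry4 were in 1 and 2. Id4, a marker of stem cells, and Zbtb16 (PLZF) were in 1 list of each mark, and Bcl6b and Ret in none.

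Of 18 differentiation genes 4 were marked by each mark (22.2%). Dnmt3a, a DNA methyltransferase, and Ccnd3, a D-type cyclin, had both marks. Stra8, which drives entry into meiosis, was in 2 H4R3me2a lists and no H4R3me2s list at 131 and 62.9 TPM in Smart-seq2. Uhrf1, which maintains DNA methylation, was in both H4R3me2s lists and no H4R3me2a list at 69.4 and 70.9 TPM. Dmrt1, Ddx4, Sohlh2 and Rhox13 had H3K4me3 and no summit of either mark.

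For meiotic genes the H4R3me2a share was near that of all genes too. Of 37 found, 5 were marked by at least 2 H4R3me2a lists (13.5%) and 4 by both H4R3me2s lists (10.8%). Their median was 56.5 TPM in Smart-seq2 and 14.65 TPM in bulk RNA-seq. Of all genes at 10 to 100 TPM, 24.9% and 32.3% were marked in this way with Smart-seq2 values, and 24.3% and 30.2% with bulk values. Sycp1 and Sycp3 of the synaptonemal complex were in no list, at 288 and 289 TPM for Sycp1 and 207 and 185 TPM for Sycp3 in Smart-seq2, and at 37.5 to 62.8 TPM in bulk RNA-seq. Syce2, Psmc3ip and Meiob were in 2 H4R3me2a lists and no H4R3me2s list. Brca1 and Ccnb1ip1 were in both H4R3me2s lists and no H4R3me2a list.

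Splicing, proteasome and ribosomal genes were marked at shares near those of highly expressed genes. Of all genes at 100 TPM or more in Smart-seq2, 24.3% were marked by at least 2 H4R3me2a lists and 37.0% by both H4R3me2s lists. Of 37 splicing factors 8 were marked by at least 2 H4R3me2a lists (21.6%) and 17 by both H4R3me2s lists (45.9%). Srsf1, Srsf3, Srsf4, Srsf6, Hnrnpl, Hnrnpu and Ptbp1 had H4R3me2s alone, as had 4.93% of all genes. H4R3me2a alone was found at 2.95% of all genes and at 0 of the 37, too few to read a difference from. Srsf2, Tra2b, Hnrnpk, Hnrnpa1, Hnrnpa2b1, Hnrnpf and Hnrnph1 had both marks, as had 6.96% of all genes. Of 31 proteasome genes 7 and 13 were marked (22.6% and 41.9%), and of 43 ribosomal protein genes 8 and 14 (18.6% and 32.6%). H4R3me2s replicate 1 marked 22 splicing factors, 25 ribosomal and 23 proteasome genes, and replicate 2 marked 24, 18 and 15. The H4R3me2a lists each marked 11 splicing factors, 7 to 11 ribosomal and 6 to 10 proteasome genes.

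Of 39 Hox genes 4 were marked by at least 2 H4R3me2a lists (10.3%) and 2 by both H4R3me2s lists (5.13%). The H4R3me2a lists were uneven there, with 10, 12 and 3 Hox genes, and 20 had a summit in at least 1 of them, where 40.0% of all genes had one. Of 1135 olfactory receptor genes 5 (0.441%) and 3 (0.264%) were marked. Spermatid genes, whose median was 0 TPM in Smart-seq2, were marked in 4 and 6 of 26 (15.4% and 23.1%). These shares are read against 15.3% and 17.7% of all protein-coding genes, and the lists of genes carry no test.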

How the data were processed

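Members and gene lists were chosen with earlier results of these data known. Peak calling by the authors used MACS2 2.1.0 on mm10, sample by sample, at p 0.005 (H3K4me3 at q 0.05), and the aligner is not given in the sources used here. Each list they deposited gives a fold enrichment over the local background, −log10 p and −log10 q. The TPM values deposited per gene were made by the authors with RSEM. From fold enrichment, (k + 1)/(λ + 1), and the Poisson p of MACS2, the pileup k and background λ were solved for each peak, and the steps were tested on simulated data. Read totals are not known.

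Summits were placed with GENCODE vM21 (132758 start sites) on GRCm38, in the order promoter, exon, intron, intergenic. Peaks shared at least 1 bp. Of 55401 gene identifiers 55104 matched. H3K4me3 and H3K27ac peaks were those found in both lists. Lists were compared by two-sided exact permutation tests (scipy 1.17.1, Python 3.11.15), which measure only the spread between lists, since the labels do not say that replicates are separate animals. Medians of expression used log2(TPM + 1). Alternatives were equal list length, a q of at most 0.01, promoters of 1000 bp, windows of 1001 bp, other overlaps and gene sets, and each list left out. Named genes were the 8 of each class with the highest mean rank of −log10 p, Prmt1 and Prmt5, and members of the gene lists. P14 samples and Prmt1-dKO RNA were not used here.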

Additional observations from a re-analysis of the deposited data

How the results depend on the processing

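Of the comparisons between the marks, the peak number, the intron share and the median expression in both assays kept their direction under every alternative run, but the peak number differed by -457 at a q of at most 0.01 against -10361 over all peaks, and the lists then overlapped (exact permutation p = 0.6). With 1 list left out at a time the difference (H4R3me2a minus H4R3me2s) ranged from -18443 to -2279 peaks, from 4.57 to 12.0 percentage points for introns, from -0.48 to -0.07 in Smart-seq2 and from -0.32 to -0.01 in bulk RNA-seq on the log2 scale. The other differences changed sign when a list, mostly H4R3me2s replicate 1 or 2, was left out, ranging from -16.4 to 3.36 points for promoters, -3.22 to 0.385 for exons, -8.83 to 7.30 for intergenic space, -12.0 to 0.691 for H3K4me3, -3.21 to 4.13 for H3K27ac, -0.997 to 1.99 for GC content, -0.0790 to 0.00418 for the CpG ratio, -3.24 to 7.73 for repeats, -5.77 to 0.227 for expressed genes in Smart-seq2 and -3.83 to 1.23 in bulk RNA-seq.

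At equal list length the difference turned to 1.90 points for intergenic space, -3.11 for H3K27ac and -0.166 for GC content, and at a q of at most 0.01 to 16.7 points for intergenic space and -3.21 for GC content. That threshold moved the promoter difference from -6.54 to -28.7 points, that for exons from -1.42 to -5.88, that for H3K4me3 from -5.64 to -14.9 (-10.2 at equal list length), and expression from -0.28 to -0.82 in Smart-seq2 and from -0.17 to -0.45 in bulk RNA-seq (-0.49 and -0.29 at equal list length, -0.16 and -0.10 over genes of at least 1 TPM, -0.20 and -0.10 over all annotated genes). The difference in expressed genes went from -2.77 to -10.3 points in Smart-seq2 and from -1.30 to -5.69 in bulk RNA-seq (-5.29 and -3.21 at equal list length). The replicate numbers are not stated to pair samples, and lists of the same number overlapped by 14.4% on average against 14.5% for lists of other numbers. With the replicate block (replicates 1 and 2 paired by number) the H3K27ac difference was -0.0177 and no other direction changed, for example -7.26 points for promoters and 8.41 for introns.

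The mean overlap of 14.9% of H4R3me2a peaks with H4R3me2s was 8.43% at a reciprocal overlap of 50%, 12.8% at equal list length, 28.4% at a q of at most 0.01 and 19.4% with a gap of up to 500 bp, an alternative chosen after seeing the data. For the 10.1% of H4R3me2s peaks these values were 5.62%, 12.9%, 25.5% and 13.2%. Genes with both marks, H4R3me2a alone and H4R3me2s alone numbered 1012, 395 and 964 with promoters of 1000 bp, 1126, 889 and 715 at equal list length, 70, 66 and 171 at a q of at most 0.01, and 1925, 1096 and 1600 over all annotated genes. Without 1 list they ranged from 869 to 2128, 272 to 1249 and 1470 to 2938, where leaving out an H4R3me2s list was chosen after seeing the data. Equal list length thus turned the order of the classes with 1 mark. The expression gap of -1.89 was -2.85 in Smart-seq2 replicate 2 alone and -0.96 at promoters with H3K4me3, and ranged from -2.53 to 0.29 without 1 list, the last 2 chosen after seeing the data. It turned to 0.29 without H4R3me2s replicate 1, was -0.73 without replicate 2, and the cause was not tested. The 4-fragment median of H4R3me2s limits what a missing peak can show.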
